A study of Mus musculus with 6 samples.

Results

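The proteasome genes are the 45 genes of the deposited count table, out of 55376, whose symbol is Psma, Psmb, Psmc, Psmd, Psme, Psmf or Psmg followed by a number, with the interferon-inducible catalytic subunits Psmb8, Psmb9 and Psmb10 set aside and described at the end. The rule uses gene symbols only. They were measured by RNA-seq in whole retinas of 3 wild-type mice (WT) and 3 Wfs1-/- mice (Wfs1-KO), all at postnatal day 240 and, per the labels, of strain C57x129, whereas the methods state a C57BL/6 J background. The mutant line is a targeted deletion of a coding exon of Wfs1, present in every cell of the animal, and WFS1 is the endoplasmic reticulum protein whose loss causes Wolfram syndrome. Wild-type mice carry no engineered allele according to the labels.

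The proteasome is the protease complex that degrades most ubiquitin-tagged proteins of the cytosol and nucleus, including misfolded proteins extracted from the endoplasmic reticulum. Its core particle is a barrel of alpha and beta rings, in which the beta subunits PSMB5, PSMB6 and PSMB7 hold the catalytic sites. A regulatory particle, made of a base with a ring of ATPases and a lid, binds ubiquitin chains, unfolds the substrate and threads it into the barrel. When proteasome activity falls short, cells are known to raise all subunit genes together through the transcription factor NRF1, which is encoded by Nfe2l1.

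In the comparison of all 6 retinas, 0 of the 43 proteasome genes that could be tested passed an adjusted p of 0.05 (edgeR quasi-likelihood test with Benjamini-Hochberg adjustment), beside 0.0108% of all 18547 tested genes. Their fold changes nevertheless leaned one way: 36 of 43 were above 0, against 52.8% of all genes, and the median log2 fold change of Wfs1-KO over WT was 0.25, against 0.02 over all genes. That lean came with a single retina. Wfs1-KO replicate 2 had the highest level of the 6 retinas for 37 of the 43 genes, and without it 42 of 43 fold changes were below 0, with a median of -0.14. In the other Wfs1-KO retinas the proteasome genes thus lay slightly below WT, by an amount that passed the test for no gene after adjustment.

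Total counts were between 17916885 and 65714683 in WT and between 43443859 and 101334381 in Wfs1-KO retinas, of which the proteasome genes together held between 56038 and 314637 per retina. Wfs1 itself was measured at 64.9, 61.3 and 69.9 CPM (read counts relative to library size, with TMM factors) in WT replicates 1, 2 and 3 and at 9.62, 0.898 and 11.5 CPM in Wfs1-KO replicates 1, 2 and 3. Wfs1-KO replicate 2 stood apart from the other libraries, with a mean correlation of 0.918 to them across genes, while the others were between 0.962 and 0.971. The 11 retina-defining markers analysed, including Pde6b of rods and Rbpms of ganglion cells, were detected in every retina. Their summed level was 8613 to 9461 CPM in WT and 7668 and 8322 CPM in Wfs1-KO replicates 1 and 3. In replicate 2 it was 9796 CPM, of which Sag alone held 6046 CPM. Sag, Rlbp1 and Rbpms were highest there, 3 of 11, while Pde6b, Gad1, Lhx1 and Slc17a6 were lowest. WT replicate 3 held 4 Xist counts and each of the other retinas at least 10583, so 1 WT retina differed from the rest in this female-specific transcript, and the labels give no sex.

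Levels per exon length differed between the subcomplexes. In WT retinas, the median over the members was 72.6 RPKM (CPM per kilobase of exon) for the beta ring, 68.8 RPKM for the base ATPases, 56.6 RPKM for the non-ATPase base subunits, 54.4 RPKM for the alpha ring and 39.2 RPKM for the lid. The activators and the inhibitor had a median of 23.0 RPKM and the assembly chaperones, which build the particle and then leave it, a median of 13.6 RPKM. The highest was Psmb6, the caspase-like catalytic subunit, at 132 ± 27.9 RPKM (SD, n = 3), followed by the base ATPase gene Psmc5 at 117 ± 18.5 RPKM and the beta ring gene Psmb4 at 109 ± 15.9 RPKM. The lowest tested member was the assembly chaperone gene Psmg3 at 7.09 ± 0.166 RPKM, 18.6-fold below Psmb6. Most neighbours in this order did not differ beyond their spread, since the WT ranges of only 6 of the 42 neighbouring pairs did not overlap. Using the length of 1 coding transcript in place of all annotated exons moved the level of 1 tested member by more than 1.5 times, that of Psmb1, from 26.1 to 50.9 RPKM. It also changed the order of the subcomplexes. The median of the beta ring stayed at 72.6 RPKM, and those of the base ATPases and the non-ATPase base rose above it. The latter became that of Psmd2, 74.2 RPKM, since Psmd4 moved from 56.6 to 78.1 RPKM. The beta ring median is the level of Psmb7, whose exons partly overlap those of Nek6 in the annotation.

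**Figure D1:**
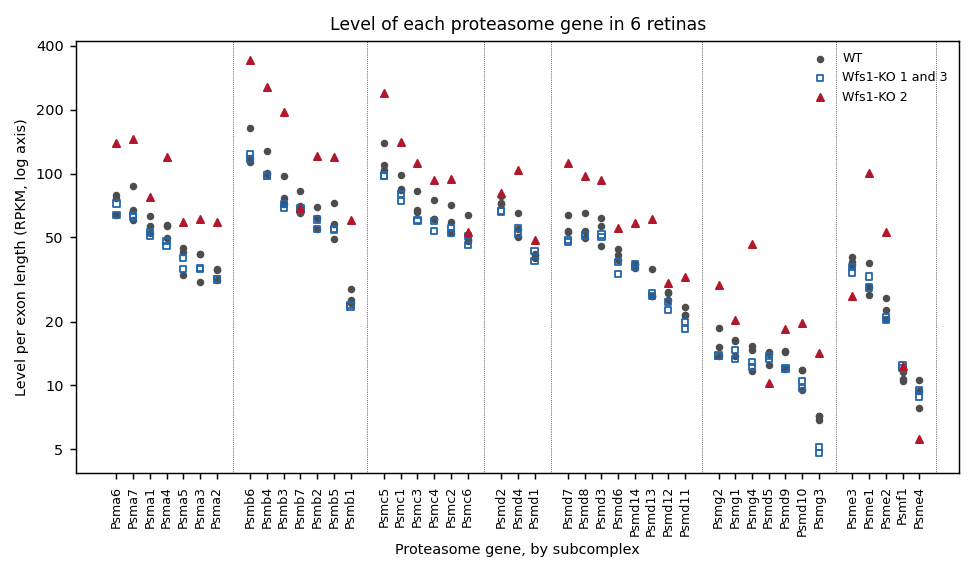
Level of the 43 tested proteasome genes per exon length (RPKM, log axis), 1 column per gene, grouped by alpha ring, beta ring, base ATPases, non-ATPase base, lid, assembly chaperones, and activators with the inhibitor, with 1 point per retina. Grey circles are the 3 WT retinas, open squares Wfs1-KO replicates 1 and 3, and triangles Wfs1-KO replicate 2; the triangles lie above all other points for 37 genes, and the assembly chaperones lie lowest as a group, with a WT median of 13.6 RPKM.

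The remaining 2 members were the subunits limited to certain tissues. Psma8, the alpha subunit of the testis, had 0.0301, 0.0840 and 0 CPM in WT replicates 1, 2 and 3 and 0.0388, 0.189 and 0.0454 CPM in Wfs1-KO replicates 1, 2 and 3. Psmb11, the catalytic subunit of the thymus cortex, was at most 0.0420 CPM in any retina. Both were near the level of 3 counts, between 0.0291 and 0.170 CPM depending on the library, and were too low to be tested.

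The catalytic genes Psmb5, Psmb6 and Psmb7 were chosen for a full description because the active sites set what the complex can cut. Psmb6 was at 131, 90.4 and 94.0 CPM in WT replicates 1, 2 and 3 and at 99.0, 273 and 93.6 CPM in Wfs1-KO replicates 1, 2 and 3. Replicates 1 and 3 of Wfs1-KO thus lay inside the WT range and replicate 2 far above it, and the fold change of 0.56 ± 0.43 (log2, SE) had an unadjusted p of 0.233 in the edgeR test. Psmb5, the chymotrypsin-like subunit, had the same pattern, with 65.5, 44.1 and 52.1 CPM in WT and 49.3, 108 and 49.0 CPM in Wfs1-KO, a log2 fold change of 0.35 ± 0.35. Psmb7, the trypsin-like subunit, did not: it was at 96.1, 81.4 and 75.1 CPM in WT and at 78.2, 79.5 and 79.2 CPM in Wfs1-KO, so that in replicate 2 it was at 0.969 times the mean of the other 5 retinas, where Psmb5 was at 2.08 times and Psmb6 at 2.69 times. Psmb7 was the only beta ring gene that was not highest in that retina. Exons of Psmb7 and of Nek6, on the opposite strand, share 405 bases in the annotation, and the library kit does not keep the strand.

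The antioxidant response element, bound by NRF1 and NRF2 together with small MAF proteins, is the known control element of many proteasome promoters. Its core, spelled TGACNNNGC, was searched on both strands in RefSeq promoter windows (GRCm38.p6, 250 bases before to 50 bases after the RefSeq start of the gene). Windows were given for 37 of the 45 members. It was found in 6 of their 40 windows, 15%, against 12.4% of all 32851 windows, so it was about as frequent as elsewhere. Windows of Psmb5 (chr14:54617946-54618245, minus strand), Psmb6 (chr11:70525107-70525406, plus strand) and Psme4 (chr11:30771525-30771824, plus strand) are printed. The match begins close before the RefSeq start of the gene in each of them, as it does in Psmd9, which is not printed. The count table uses another annotation, and its starts for Psmb5, Psmb6 and Psme4 differ from the RefSeq ones. There Psme4 begins at position 30771726, so that its match lies inside the counted gene. Psmb5, Psmb6 and Psmd9 were highest and Psme4 lowest in Wfs1-KO replicate 2, and the printed windows were picked with these levels known. Sequences run 5′ to 3′ on the strand of the gene, with the match in capitals, which for Psme4 is on the other strand.
Psmb5: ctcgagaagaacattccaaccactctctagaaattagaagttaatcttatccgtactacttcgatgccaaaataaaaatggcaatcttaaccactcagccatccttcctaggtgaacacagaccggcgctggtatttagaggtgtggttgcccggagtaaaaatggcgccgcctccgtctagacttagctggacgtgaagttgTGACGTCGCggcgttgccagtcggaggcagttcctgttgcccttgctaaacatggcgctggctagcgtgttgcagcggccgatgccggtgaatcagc
Psmb6: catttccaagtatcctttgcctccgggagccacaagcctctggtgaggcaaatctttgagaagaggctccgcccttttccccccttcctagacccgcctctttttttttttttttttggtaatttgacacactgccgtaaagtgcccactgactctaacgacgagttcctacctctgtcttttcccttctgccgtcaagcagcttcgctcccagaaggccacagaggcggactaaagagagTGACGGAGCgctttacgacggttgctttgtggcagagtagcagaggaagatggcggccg
Psme4: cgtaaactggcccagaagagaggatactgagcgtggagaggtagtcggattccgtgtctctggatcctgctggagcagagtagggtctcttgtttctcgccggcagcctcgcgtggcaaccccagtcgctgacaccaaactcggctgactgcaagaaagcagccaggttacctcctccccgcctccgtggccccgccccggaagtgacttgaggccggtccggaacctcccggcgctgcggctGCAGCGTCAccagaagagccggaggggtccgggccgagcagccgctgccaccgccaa
The match began 47 bases before the RefSeq start of Psmb5, 9 bases before that of Psmb6 and 7 bases before that of Psme4, where it runs past that start. The other members with a match were Psmd9, 31 bases before the start, Psmc6, 227 bases before, and Psmd12, 247 bases before. The CCAAT box, spelled CCAAT and also searched on both strands, was found in 13 of the 40 windows, 32.5%, against 37.4% of all windows. A match of letters is not a bound site, and no binding was measured.

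In the alpha ring, which gates the entrance to the barrel, all 7 genes had fold changes above 0 with all retinas and below 0 without Wfs1-KO replicate 2, with medians of 0.26 and -0.11, and 0 passed an unadjusted p of 0.05 in either fit. Psma4 had the largest fold change, 0.39 ± 0.38: it was at 66.4, 66.2 and 57.5 CPM in WT and at 53.1, 139 and 56.0 CPM in Wfs1-KO. Without replicate 2, both remaining Wfs1-KO retinas lay below all WT retinas, with a log2 fold change of -0.22 ± 0.13 and an unadjusted p of 0.128. Psma1 had the smallest difference, at 78.5, 70.0 and 64.8 CPM in WT and 65.9, 95.8 and 63.2 CPM in Wfs1-KO. The whole beta ring had medians of 0.45 and -0.14 in the fits with and without replicate 2, and in replicate 2 its median lay 1.21 above the WT mean on the log2 scale, the furthest of the 7 subcomplexes.

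The base ATPases, which unfold substrates, had medians of 0.12 and -0.22. Psmc5 was at 182, 137 and 144 CPM in WT and at 129, 316 and 128 CPM in Wfs1-KO, so that its fold change went from 0.30 ± 0.38 with all retinas to -0.28 ± 0.15 without replicate 2. Psmc6 did not stand out in replicate 2: it was at 110, 142 and 107 CPM in WT and 102, 118 and 113 CPM in Wfs1-KO, and was one of the 3 tested members for which replicate 2 was neither highest nor lowest, beside Psmb7 and Psmf1. ATPases of the same ring thus differed in replicate 2. Psmc6 was at 1.03 times the mean of the other retinas and Psmc5 at 2.19 times. Their exon lengths are 2234 and 1316 bases, and the part of length in this difference was not tested. Of the non-ATPase base subunits, the scaffold gene Psmd2 was at 233, 212 and 214 CPM in WT and 196, 240 and 198 CPM in Wfs1-KO. Psmd4, which encodes the ubiquitin receptor RPN10, was at 120, 91.8 and 100.1 CPM in WT and 95.3, 191 and 101 CPM in Wfs1-KO.

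The lid genes had medians of 0.25 and -0.16, and all 8 were highest in Wfs1-KO replicate 2. Psmd13 was at 70.5, 52.8 and 52.8 CPM in WT and 52.4, 121 and 54.3 CPM in Wfs1-KO, a log2 fold change of 0.37 ± 0.35. Its exons share 293 bases with Sirt3 on the opposite strand. Psmd12 moved least in replicate 2 among the lid genes, with 72.1, 72.7 and 66.9 CPM in WT and 60.1, 80.9 and 65.7 CPM in Wfs1-KO. Psmd14, the deubiquitinase that removes the ubiquitin chain before the substrate is degraded, was even across the other 5 retinas, between 55.3 and 57.8 CPM, and at 89.7 CPM in replicate 2.

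**Figure D2:**
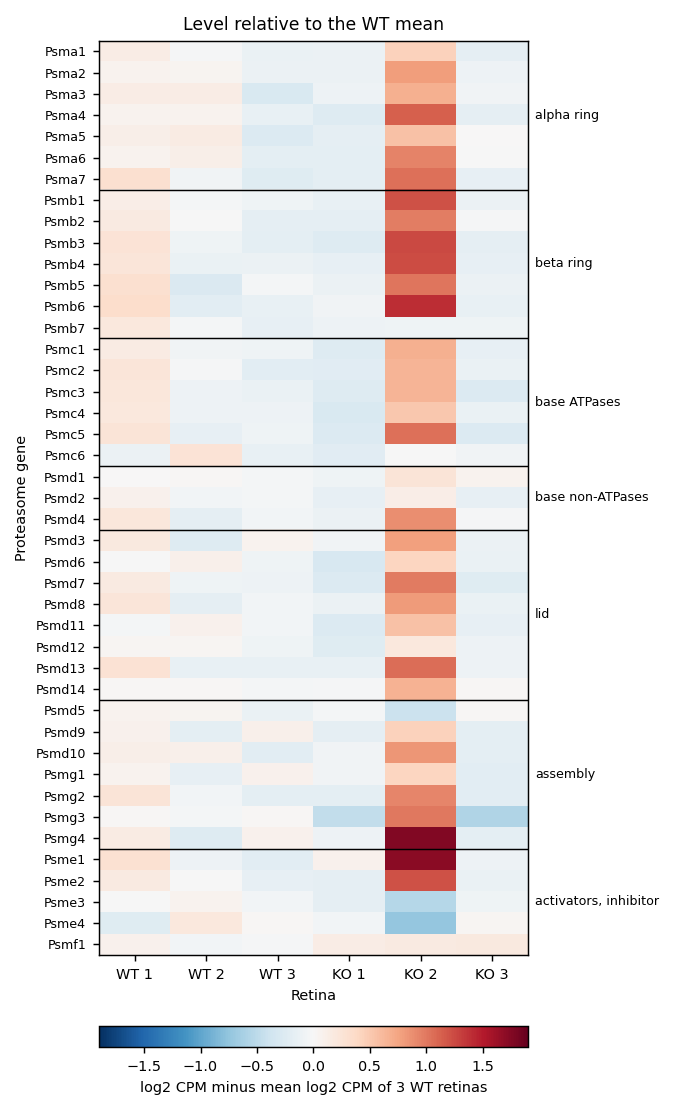
Level of each tested proteasome gene in each retina as log2 CPM minus the mean log2 CPM of the 3 WT retinas, with genes in rows by subcomplex and retinas in columns; red is above and blue below the WT mean. The column of Wfs1-KO replicate 2 is red for most genes and below the WT mean for 5, clearly for Psmd5, Psme3 and Psme4 and by less than 0.1 for Psmb7 and Psmc6, with a median of 0.78, while Wfs1-KO replicates 1 and 3 have medians of -0.16 and -0.13 and the WT retinas 0.15, -0.04 and -0.10.

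Among the assembly chaperones, the medians were 0.18 and -0.16. Psmg3 and Psmg4 encode partner chaperones that guide the order of alpha subunits. Psmg3 was even in WT, at 6.33, 6.09 and 6.35 CPM, lower in Wfs1-KO replicates 1 and 3, at 4.54 and 4.22 CPM, and higher in replicate 2, at 12.6 CPM. It was the only member below an unadjusted p of 0.05 in the edgeR fit without replicate 2, with an unadjusted p of 0.0240, an adjusted p of 0.817 and a log2 fold change of -0.52 ± 0.20. Psmg4 was at 8.55, 6.49 and 8.17 CPM in WT and 7.15, 25.9 and 6.76 CPM in Wfs1-KO, and at 3.48 times the mean of the other retinas it was the tested member furthest up in replicate 2. Psmd5, a chaperone of the base, went the other way, with 63.0, 61.9 and 55.0 CPM in WT and 58.6, 45.3 and 60.5 CPM in Wfs1-KO.

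The activators and the inhibitor split most. Psme1 and Psme2 encode the alpha and beta subunits of PA28, the interferon-inducible cap linked to antigen processing, Psme3 encodes the nuclear PA28 gamma, Psme4 encodes PA200, and Psmf1 encodes the inhibitor PI31. Psme1 was at 41.9, 32.2 and 29.8 CPM in WT and 36.3, 112 and 32.2 CPM in Wfs1-KO, and its log2 fold change of 0.79 ± 0.48 had the smallest unadjusted p of the 43 genes, 0.140 (adjusted p = 0.979, edgeR). Without replicate 2 it was -0.03 ± 0.17. Psme3 was at 102, 107 and 98.7 CPM in WT and 91.0, 70.3 and 96.7 CPM in Wfs1-KO, so that all Wfs1-KO retinas lay below all WT retinas, with a log2 fold change of -0.26 ± 0.18 and an unadjusted p of 0.193. Psmf1 was the opposite case, at 46.4, 42.0 and 42.9 CPM in WT and 48.2, 49.1 and 49.6 CPM in Wfs1-KO, above WT in all 3 retinas by 0.16 ± 0.15. It was also the single member above 0 without replicate 2, at 0.15 ± 0.13. Psmf1 and Psme3 were the only members whose genotypes did not overlap, 1 higher and 1 lower of 43, against 5.01% and 3.95% of all tested genes. Psme4 was at 50.9, 69.2 and 61.1 CPM in WT and 57.6, 36.1 and 61.4 CPM in Wfs1-KO, lowest in replicate 2.

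Set against all genes, 0 of the 43 had an unadjusted p under 0.05 in the higher direction and 0 in the lower direction, where 2.24% and 0.566% of all tested genes did. Standard errors of the 43 fold changes ran from 0.15 to 0.53 with a median of 0.28, and no fold change exceeded 1.65 times its standard error. Without Wfs1-KO replicate 2 the median standard error was 0.15. In that fit 0 members passed the adjusted threshold, beside 0.125% of 19178 genes, and at an unadjusted p under 0.05 there were 0 higher, against 2.8%, and 1 lower, against 2.39%. The share of 42 in 43 below 0 stands against 50.1% of all genes, whose median was -0.00038. Both remaining Wfs1-KO retinas lay below all WT retinas for 14 of 43 members, against 11% of all genes, and above them for 1, Psmf1, against 11.4%. The 14 were Psma4, Psmb1, Psmb4, Psmc1, Psmc3, Psmc4, Psmc5, Psmd2, Psmd6, Psmd7, Psmd11, Psmd12, Psmg3 and Psme3, so they came from all subcomplexes.

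The size of the small downward lean without replicate 2 depended on which WT retinas were kept. WT replicate 1 was the highest of the 5 remaining retinas for 28 of 43 members, against 27.1% of all genes, and without both it and Wfs1-KO replicate 2 the median was -0.07, with 34 members below 0 and 9 above. Without WT replicate 2 and Wfs1-KO replicate 2 it was -0.19, with 41 below 0, and without WT replicate 3 and Wfs1-KO replicate 2 it was -0.21, with 42 below 0. Reads of the members made up 0.380%, 0.333% and 0.313% of the counts of WT replicates 1, 2 and 3, and 0.310%, 0.543% and 0.320% of those of Wfs1-KO replicates 1, 2 and 3. Wfs1-KO replicates 1 and 3 were thus within or just under the WT range.

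**Figure D3:**
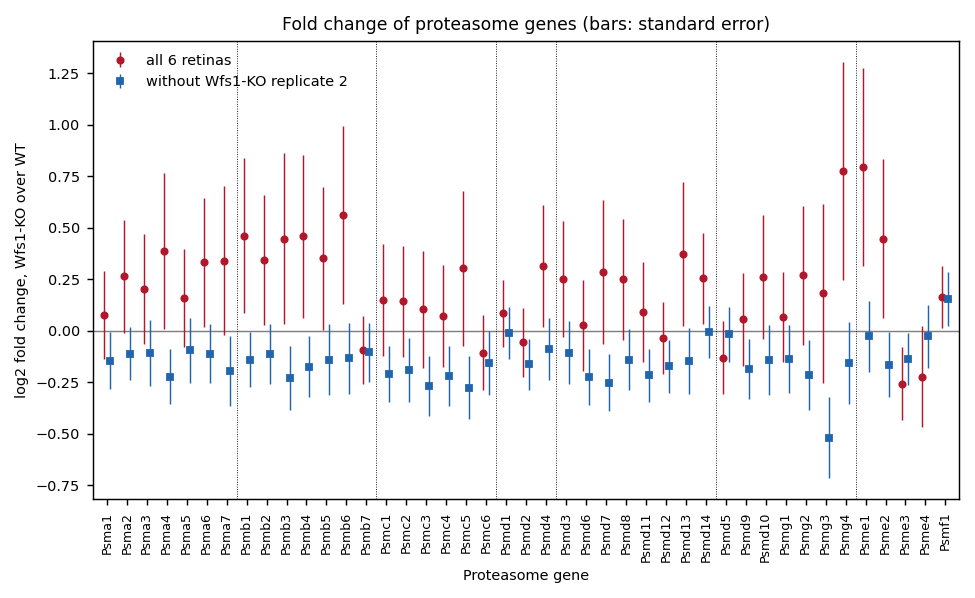
Log2 fold change of Wfs1-KO over WT for each tested proteasome gene, with bars of 1 standard error; circles are the fit with all 6 retinas and squares the fit without Wfs1-KO replicate 2. The circles have a median of 0.25 and 36 of 43 lie above 0, the squares have a median of -0.14 and 42 lie below 0; in both fits Psmf1 lies above 0 and Psme3 below.

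Several measurements moved with Wfs1-KO replicate 2 beside the proteasome genes. It was the highest retina for 38.4% of all tested genes and the lowest for 36.9%, where it was highest for 37 and lowest for 3 of the 43 members. Proteasome genes are short, with a median exon length of 1541 bases against 2972 over all tested genes, and the level in replicate 2 relative to the other 5 retinas fell with exon length, with a Spearman correlation of -0.62 over the 43 members and -0.39 over 18547 genes, which share these 6 libraries. Among genes over 1000 and up to 2000 bases the median log2 ratio was 0.58 over all genes and 0.89 over the 20 members of that length. Among genes of up to 1000 bases it was 0.73 and 1.26, among genes over 2000 and up to 3000 bases 0.15 and 0.63, and among genes over 3000 and up to 5000 bases -0.21 and 0.17, the latter over 4 members. Members thus lay above genes of their own length in these classes, and Psme4, with the longest exons, at 6491 bases, lay at -0.73, below the median of -0.53 over all genes longer than 5000 bases. When a smooth trend of exon length was removed in each library, the median of the members with all 6 retinas was 0.02, with 26 above 0 and 17 below, and without replicate 2 it was -0.10, with 4 above 0 and 39 below.

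**Figure D4:**
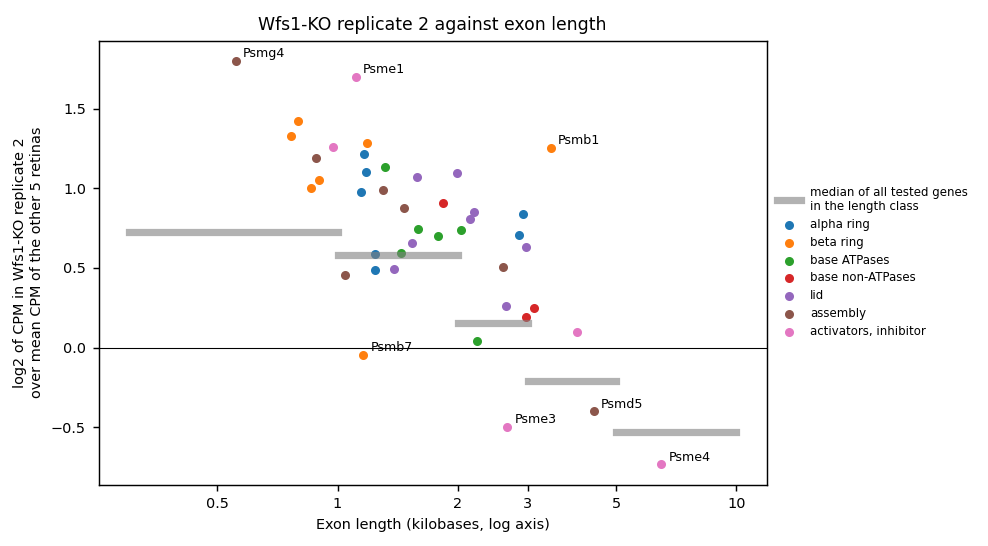
Log2 ratio of CPM in Wfs1-KO replicate 2 to the mean CPM of the other 5 retinas against exon length in kilobases (log axis), 1 point per tested proteasome gene, coloured by subcomplex; grey bars are medians of all tested genes in 5 length classes, with the outer ends of the outermost classes drawn at an arbitrary length. Both fall with length, from 0.73 for all genes of up to 1000 bases to -0.53 over 5000 bases; the median of the members lies above the bar in every class up to 5000 bases, at 1.26, 0.89, 0.63 and 0.17.

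Markers of other cells moved with that retina as well. Blood markers summed to 12.3 to 41.1 CPM in WT, 22.7 and 20.1 CPM in Wfs1-KO replicates 1 and 3, and 479 CPM in replicate 2, with 5 of 5 genes highest there. Leukocyte and microglia markers summed to 28.7 to 33.0 CPM in WT, 40.4 and 26.6 CPM in Wfs1-KO replicates 1 and 3, and 204 CPM in replicate 2, with 7 of 8 highest there. Lyz2 at 94.5 CPM, Cx3cr1 at 39.7 CPM and Cd74 at 32.1 CPM made up most of it. Csf1r was at 19.6 CPM in replicate 2 against 16.9 CPM in replicate 1. P2ry12, at 5.30 CPM in replicate 2, was not highest there. Pigment epithelium markers summed to 110 to 167 CPM in WT, 88.4 and 49.9 CPM in Wfs1-KO replicates 1 and 3, and 403 CPM in replicate 2, with 7 of 10 highest there. Most of that sum was Ttr, at 234 CPM, and Rgr, at 105 CPM. In replicate 2, Rpe65 at 20.8 CPM and Best1 at 1.13 CPM lay inside the WT range. Lrat, at 4.59 CPM there, lay below the WT range of 5.82 to 11.9 CPM. Lens markers summed to 2.38 to 4.02 CPM in WT, 5.54 and 3.68 CPM in Wfs1-KO replicates 1 and 3, and 14.5 CPM in replicate 2, with 6 of 12 highest there and Cryba2, Cryba4, Lim2 and Mip at 0 in at least 1 retina. Most of the sum in replicate 2 was Crybb1, at 5.82 CPM, and Crybb3, at 4.87 CPM. Cryaa was lowest in replicate 2, at 0.0473 CPM, and Cryba2 was at 0 in that retina only. The part of these cells, and of exon length, in the proteasome levels of replicate 2 was not tested. In whole retina, fewer cells of a type and less RNA per cell cannot be told apart.

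Psmb8, Psmb9 and Psmb10 replace Psmb5, Psmb6 and Psmb7 in the immunoproteasome, the form that immune cells carry and that interferon gamma induces elsewhere. In WT retinas they were minor: per exon length, Psmb8 was at 2.10%, 1.63% and 1.86% of Psmb5 in replicates 1, 2 and 3, Psmb9 at 0.788%, 0.754% and 0.142% of Psmb6, and Psmb10 at 14.7%, 11.4% and 12.4% of Psmb7. In Wfs1-KO replicates 1, 2 and 3, Psmb8 was at 3.70%, 8.07% and 2.12% of Psmb5, and Psmb9 at 1.04%, 1.88% and 0.887% of Psmb6. Psmb10 was at 15.3%, 59.6% and 13.3% of Psmb7. Replicate 2 had the highest share of all retinas for each pair. In replicate 1 the share also exceeded the highest WT share for each pair, for Psmb8 at 3.70% against 2.10%. In replicate 3 the share of Psmb8 exceeded it by less than 0.1 percentage points. That of Psmb9 in replicate 3 was 0.887% against 0.788%, and that of Psmb10 lay inside the WT range. The shares of Psmb10 rest on the level of Psmb7, whose exons share 405 bases with those of Nek6. The effect of that overlap on the shares was not tested.

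Psmb8 was at 2.498, 1.30 and 1.76 CPM in WT and 3.31, 15.8 and 1.88 CPM in Wfs1-KO, a log2 fold change of 1.91 ± 0.78 with an unadjusted p of 0.0431 and an adjusted p of 0.979 (edgeR). It was the only 1 of the 3 inducible genes with an unadjusted p under 0.05 in that fit, against 2.24% of all tested genes in the higher direction. Without replicate 2 its fold change was 0.48 ± 0.35, with an unadjusted p of 0.202. Psmb9 was at 1.75, 1.16 and 0.227 CPM in WT and 1.74, 8.68 and 1.41 CPM in Wfs1-KO, and the WT replicate 3 value rests on 4 reads. In Wfs1-KO replicates 1 and 3 Psmb9 lay inside the WT range of CPM, as did Psmb8 in replicate 3. Psmb10 was at 15.96, 10.5 and 10.5 CPM in WT and 13.5, 53.5 and 11.9 CPM in Wfs1-KO. All 3 were highest in replicate 2, which also had the highest sums of blood, leukocyte and microglia, pigment epithelium and lens markers. The part of these cells in the levels of the 3 genes was not tested.

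**Figure D5:**
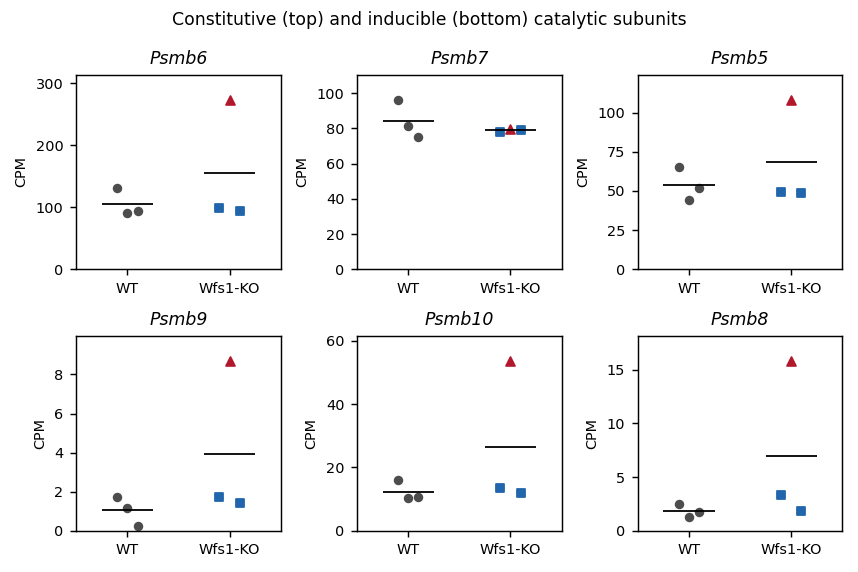
CPM of the constitutive catalytic subunits Psmb6, Psmb7 and Psmb5 (top) and of the inducible subunits Psmb9, Psmb10 and Psmb8 that take their places (bottom), each panel with its own axis from 0; circles are WT retinas, squares Wfs1-KO replicates 1 and 3, the triangle is Wfs1-KO replicate 2, and lines are group means. Replicate 2 is the highest point for every gene shown except Psmb7, which lies at 79.5 CPM there.

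The lists of further subunits and of genes that work around the particle had medians just below 0 with all retinas. Single genes lay on both sides of 0, and the difference of these lists from the members was not tested. Of 16 further subunits and bound factors, such as the ubiquitin receptor gene Adrm1, the assembly factor Pomp and the deubiquitinase genes Usp14 and Uchl5, 0 passed an unadjusted p of 0.05 in either fit, and the median log2 fold change was -0.06 with all retinas and -0.07 without replicate 2. Among all tested genes, 2.24% passed in the higher and 0.566% in the lower direction with all retinas, and 2.8% and 2.39% without replicate 2. Of the 16 genes, 7 had fold changes above 0 with all retinas and 6 were highest in replicate 2. Both groups included the subunit genes Adrm1, at 0.07, and Sem1, at 0.53, and the assembly factor Pomp, at 0.43. Of the 8 genes of NRF1 and its processing, 0 passed in either fit, with medians of -0.13 and 0.01. Nfe2l1 was at 297, 283 and 305 CPM in WT and 279, 222 and 303 CPM in Wfs1-KO, lowest in replicate 2, where most subunits were highest. Its exon length is 4867 bases. All tested genes over 3000 and up to 5000 bases had a median log2 ratio of -0.21 in replicate 2 over the other retinas. The part of exon length in the level of Nfe2l1 was not tested. Of the 8 ubiquitin and ubiquitin-conjugation genes analysed, such as the polyubiquitin gene Ubb and the activating enzyme gene Uba1, 0 passed in either fit, with medians of -0.03 with all retinas and -0.13 without replicate 2. With all retinas 4 of these 8 were above 0, and their range was -0.15 to 0.70, the latter for Rps27a.

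Counting could have mixed some members with other genes. Near-identical copies had few counts of their own. A730017L22Rik, 97.9% identical to Psmd11 over 1501 bases, had 1562 counts over the 6 retinas against 21051 for Psmd11. Psme2b had 306 against 8219 for Psme2. Gm13835, 100% identical to Psma3 over 665 bases, had 282 against 37313. Gm3375, 98.9% identical to Psmb5 over 796 bases, had 84 against 19184. Reads that match a gene and its copy equally may have been counted for neither, and these counts cannot show such a loss. Psmc3 shares 291 bases of exon with Slc39a13, and Psme1 shares 7 bases with Emc9, each on the opposite strand, so reads in these stretches could not be assigned to a strand.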

How the data were processed

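Total RNA of 6 whole retinas was sequenced with an Illumina TruSeq kit, which does not keep the strand. The authors trimmed reads with Trimmomatic (0.39), mapped them to mm10 with STAR (2.5.3a) and counted exon reads per gene with featureCounts (1.6.4), versions as in the submitters' processing notes; the methods name later versions of the first tools. The deposited values are raw counts, not normalized, and the exon length of each gene came from the same table. Of its 8 library columns, 2 matched no listed sample and were not used. The labels name Trizol and the methods a column kit for the RNA.

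Counts were compared between genotypes in R (4.3.3) with edgeR (4.0.16), using TMM factors, its default filter on low counts, the quasi-likelihood test with genotype as the only term, and Benjamini-Hochberg adjustment over all tested genes. The methods name DESeq2 on RPKM values, which are not counts, so DESeq2 (1.42.0) was run on counts as an alternative, beside limma-voom (3.58.1). The SE of a log2 fold change was taken as its size over the root of its F statistic. Levels are CPM with TMM factors or, between genes, RPKM, and 0.1 CPM was added on both sides of log2 ratios set against exon length. The median of a gene group is a description, with no test. Mice were separate animals as far as replicate labels tell, no 2 libraries agreed within sampling noise, and p-values measure only the spread between these retinas. Near-identical copies were sought with blastn (2.17.0), at 95% identity over at least 200 bases of GENCODE M21 transcripts.

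The members and gene lists were chosen with earlier results of these data known. Values in every retina were given for members with an unadjusted p under 0.05 in either fit, members whose genotypes did not overlap, the largest rise and fall of each subcomplex, the catalytic subunits and the highest and lowest member per length; Psmd14 and Psme4 were added after their values were seen. Of the pathway lists, 16 of 17 bound factors were found in the table. 1 listed retinal marker and 1 listed pathway gene are not reported here.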

Additional observations from a re-analysis of the deposited data

How the results depend on the processing

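No member passed an adjusted p of 0.05 in edgeR, DESeq2 or limma-voom under any of the 22 alternative fits, and the median of the 43 members stayed above 0 with every alternative that kept Wfs1-KO replicate 2 (0.02 to 0.40) and below 0 with every one that left it out (-0.21 to -0.07). The number of members at an unadjusted p under 0.05 was between 0 and 1 in each direction when 1 retina was left out: Psme1 was higher without Wfs1-KO replicate 3 in edgeR, at an unadjusted p of 0.0416, and 1 member was lower in each fit without Wfs1-KO replicate 2, or 2 members where WT replicate 2 was left out with it. Fits named here that leave out Wfs1-KO replicate 2 together with another change were added after seeing the data, apart from the length trend. The single-gene log2 fold changes that changed sign and the group medians that moved by more than the spread between retinas are given first. With DESeq2 and without that retina, the values were -0.14 for all 43 members, -0.14 for the beta ring, -0.088 for the non-ATPase base, -0.16 for the lid, -0.028 for the activators and inhibitor, 0.48 for the immunoproteasome, -0.14 for the ubiquitin genes, -0.15 for Psma1, -0.22 for Psma4, -0.14 for Psmb5, -0.13 for Psmb6, -0.28 for Psmc5, -0.088 for Psmd4, -0.14 for Psmd13, -0.52 for Psmg3, -0.16 for Psmg4 and -0.028 for Psme1. With RLE factors and without it, the values were -0.14 for all 43 members, -0.14 for the beta ring, -0.088 for the non-ATPase base, -0.16 for the lid, -0.028 for the activators and inhibitor, 0.48 for the immunoproteasome, -0.14 for the ubiquitin genes, -0.15 for Psma1, -0.22 for Psma4, -0.14 for Psmb5, -0.13 for Psmb6, -0.28 for Psmc5, -0.088 for Psmd4, -0.14 for Psmd13, -0.52 for Psmg3, -0.16 for Psmg4 and -0.028 for Psme1. With total counts only and without it, the values were -0.13 for the lid, 0.0011 for the activators and inhibitor, 0.51 for the immunoproteasome, -0.12 for Psma1, -0.19 for Psma4, -0.11 for Psmb5, -0.10 for Psmb6, -0.25 for Psmc5, -0.058 for Psmd4, -0.12 for Psmd13, 0.012 for Psmd5, -0.49 for Psmg3, -0.13 for Psmg4 and 0.0056 for Nfe2l1. With the length trend removed and without it, the values were -0.12 for the lid, -0.093 for the activators and inhibitor, 0.56 for the immunoproteasome, -0.12 for the ubiquitin genes, -0.078 for Psma1, -0.16 for Psma4, -0.064 for Psmb5, -0.060 for Psmb6, -0.20 for Psmc5, -0.028 for Psmd4, -0.087 for Psmd13, -0.45 for Psmg3 and -0.10 for Psmg4. Without it and WT replicate 1, the values were -0.070 for the activators and inhibitor, -0.13 for the ubiquitin genes, -0.066 for Psma1, -0.19 for Psma4, 0.0037 for Psmb7, -0.14 for Psmc5, 0.021 for Psmd5, -0.51 for Psmg3 and -0.066 for Psmg4. Without it and WT replicate 2, the values were -0.19 for all 43 members, -0.24 for the beta ring, -0.27 for the base ATPases, -0.18 for the non-ATPase base, -0.20 for the lid, -0.26 for the assembly chaperones, -0.088 for the activators and inhibitor, 0.26 for the immunoproteasome, -0.14 for the ubiquitin genes, -0.17 for Psma1, -0.20 for Psma4, -0.27 for Psmb5, -0.24 for Psmb6, -0.36 for Psmc5, -0.18 for Psmd4, -0.23 for Psmd13, -0.54 for Psmg3, -0.28 for Psmg4, -0.088 for Psme1 and -0.089 for Psmb10. Without it and WT replicate 3, the values were -0.21 for all 43 members, -0.21 for the alpha ring, -0.19 for the beta ring, -0.28 for the base ATPases, -0.12 for the non-ATPase base, -0.21 for the lid, -0.12 for the activators and inhibitor, 0.11 for the immunoproteasome, -0.13 for the ubiquitin genes, -0.21 for Psma1, -0.29 for Psma4, -0.17 for Psmb5, -0.21 for Psmb6, -0.33 for Psmc5, -0.12 for Psmd4, -0.22 for Psmd13, -0.51 for Psmg3, -0.12 for Psmg4, -0.12 for Psme1 and -0.066 for Psmb10. With all retinas and the length trend removed, the values were -0.15 for Psma1 and -0.23 for Psmg3. With limma-voom, the values were -0.069 for Psmg3. Leaving out 1 retina at a time gave ranges of -0.14 to 0.40 for all 43 members, -0.14 to 0.69 for the beta ring, -0.088 to 0.16 for the non-ATPase base, -0.16 to 0.38 for the lid, -0.028 to 0.20 for the activators and inhibitor, 0.48 to 2.25 for the immunoproteasome, -0.13 to 0.020 for the ubiquitin genes, -0.15 to 0.18 for Psma1, -0.22 to 0.62 for Psma4, -0.14 to 0.54 for Psmb5, -0.13 to 0.82 for Psmb6, -0.19 to 0.011 for Psmb7, -0.28 to 0.52 for Psmc5, -0.20 to 0.035 for Psmc6, -0.088 to 0.49 for Psmd4, -0.17 to 0.052 for Psmd12, -0.14 to 0.58 for Psmd13, -0.52 to 0.44 for Psmg3, -0.16 to 1.09 for Psmg4 and -0.028 to 1.09 for Psme1. Other group medians also changed sign, but by less than that spread. Without Wfs1-KO replicate 2 the alpha ring was at -0.11, the base ATPases at -0.22, the assembly chaperones at -0.16 and the NRF1 list at 0.010; with all retinas and the length trend removed the base ATPases were at -0.039 and the assembly chaperones at -0.010; and without that retina the median of all 43 members was -0.12 with total counts only, -0.099 with the length trend removed and -0.070 without WT replicate 1. The cause of these shifts beyond the retina left out was not tested.

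Retinas with the same replicate number came from different mice and did not deviate together, with correlations of -0.23, -0.11 and 0.078 between same-numbered retinas. With the replicate number as a replicate block, the members' median was 0.17, with 34 above 0 and 0 at an adjusted p of 0.05, and Psmg3 turned to -0.014. With 3 retinas per genotype the smallest standard error of a member was 0.15, and the largest difference not called, that of Psme1, was 0.79 ± 0.48, so changes well above 1 standard error could go undetected. Only the shallowest library, WT replicate 3, put fewer than 10 reads on an inducible subunit.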
